A study of Homo sapiens with 6 samples.

Results

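Polyamine synthesis and catabolism are covered here by 10 genes out of the 54628 gene symbols counted in each library: ODC1, AZIN1, OAZ1, OAZ2, AMD1, SRM, SMS, SAT1, SMOX and PAOX. The pathway was chosen by the fold change of ODC1 in this same comparison, where ODC1 stood out among MYC target genes, so its values are given as a description with no test. The other 9 genes came in by their place in the pathway. The 6 RNA-seq libraries come from U87, a human glioblastoma cell line long established in culture; the cells were sorted from co-culture by flow cytometry, and the series title names astrocytes as the source of passed mitochondria. The labels set 3 libraries of cycling cells that had received mitochondria (received) against 3 of cycling cells that had not (not received), with no further treatment, time or genotype given. The labels do not say whether replicates came from separate cultures. The p-values therefore cover no more than the spread between these libraries.

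Putrescine, spermidine and spermine are small polycations that bind RNA and DNA and that growing cells need for translation. ODC1 makes putrescine from ornithine. SRM and SMS then add aminopropyl groups, which AMD1 supplies from S-adenosylmethionine, to give spermidine and spermine. Antizymes (OAZ1, OAZ2) bind ODC1 and send it to the proteasome, and the antizyme inhibitor AZIN1, an ODC1 relative without enzyme activity, takes antizyme up. SAT1 acetylates spermidine and spermine, PAOX oxidises the acetylated forms, and SMOX turns spermine straight back into spermidine, with hydrogen peroxide as a by-product. ODC1 is a textbook target of MYC, and glioblastoma is among the tumours in which polyamine synthesis is studied as a drug target.

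Total counts ran from 17879552 to 21314558 in the received libraries and from 18549585 to 46392491 in the not-received libraries. Not-received replicate 2 was the deepest and stood apart: its mean chi-square per gene against the other libraries of its group was 20.6 and 18.8. Those other libraries gave 5.83 against each other, and pairs of received libraries 3.40 to 3.90. A chi-square on raw counts grows with depth, and the part of depth in these values was not tested. Results that rest on not-received replicate 2 are given without it as well. The 6 markers of the glioblastoma line were all present, and summed to 8891 to 9269 counts scaled to library totals (CPM) in received and 8213 to 8934 CPM in not-received libraries. Single markers moved in both directions: NES and VIM rose (log2 fold change 0.46 and 0.26, edgeR adjusted p = 0.00274 and 0.0170), and CHI3L1 and CD44 fell (-0.90 and -0.23, edgeR adjusted p = 3.75e-05 and 0.0111). The calls of VIM and CD44 were lost without any 1 received library (edgeR adjusted p up to 0.0779 and 0.0714). The 8 astrocyte markers summed to 15.1 to 16.9 CPM in received and 16.9 to 19.1 CPM in not-received libraries, nearly all of it SLC1A3, while AQP4, ALDH1L1 and GJB6 had 0 counts in every library and GFAP averaged 0.328 CPM in received and 0.390 CPM in not-received libraries. The 7 markers of microglia and macrophages summed to 25.3 to 28.3 CPM in received and 26.6 to 28.6 CPM in not-received libraries, nearly all of it CSF1R and TMEM119, and AIF1, CX3CR1 and P2RY12 were at 0. The 4 endothelial markers summed to 1.50 to 2.09 CPM in received and 1.68 to 2.07 CPM in not-received libraries. The 4 T cell markers summed to 0.611 to 1.18 CPM in received and 0.760 to 1.63 CPM in not-received libraries, with CD3D, CD3E and TRAC at 0. The 4 cycling markers MKI67, TOP2A, CDK1 and CCNB1 summed to 2066 to 2167 CPM in received and 1961 to 2256 CPM in not-received libraries. CCNB1 rose (log2 fold change 0.20, edgeR adjusted p = 0.0274, lost without any 1 received library), CDK1 lay above without overlap (0.24, edgeR adjusted p = 0.0513) and MKI67 below without overlap (-0.23, edgeR adjusted p = 0.213). The MKI67 groups nearly met, at 613.0 CPM in received replicate 3 and 613.2 CPM in not-received replicate 1. Not-received replicate 2 had the highest MKI67 value (844 CPM) and the lowest CDK1 value (246 CPM). CDK1 was called in 5 of the 13 alternative fits, and MKI67 in that with no low-count filter. With 1 library left out, log2 fold changes ran from 0.15 to 0.33 for CDK1 and from -0.32 to -0.07 for MKI67 (edgeR adjusted p up to 0.191 and 0.394). The part of these markers in the results below was not tested.

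In received cells the first synthesis enzyme and both detected catabolic enzymes stood higher, with a smaller rise of spermidine synthase. Spermine synthase, AMD1 and the genes of the antizyme system did not pass the test. Of the 9 genes other than ODC1, 8 had enough counts to be tested: SRM, SAT1 and SMOX rose, none fell, and 5 were not called by edgeR's quasi-likelihood test at an adjusted p under 0.05. At an unadjusted p under 0.05 the counts were again 3 higher and 0 lower, as they were with DESeq2 and with limma-voom. Over all 14100 genes tested, 9.21% were called higher and 9.67% were called lower. In either direction 18.9% of all genes were called. The groups did not overlap for SRM, SAT1 and SMOX, all with received above, beside 39% of all genes tested (19.5% with received above and 19.5% with received below). The same contrast was used to pick the pathway, so nothing is read from those shares. The median log2 fold change of the 8 genes was 0.03, beside -0.0012 over all genes tested. Cell number and RNA per cell cannot be told apart in bulk libraries, and CPM values are shares of each library after TMM scaling.

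**Figure D1:**
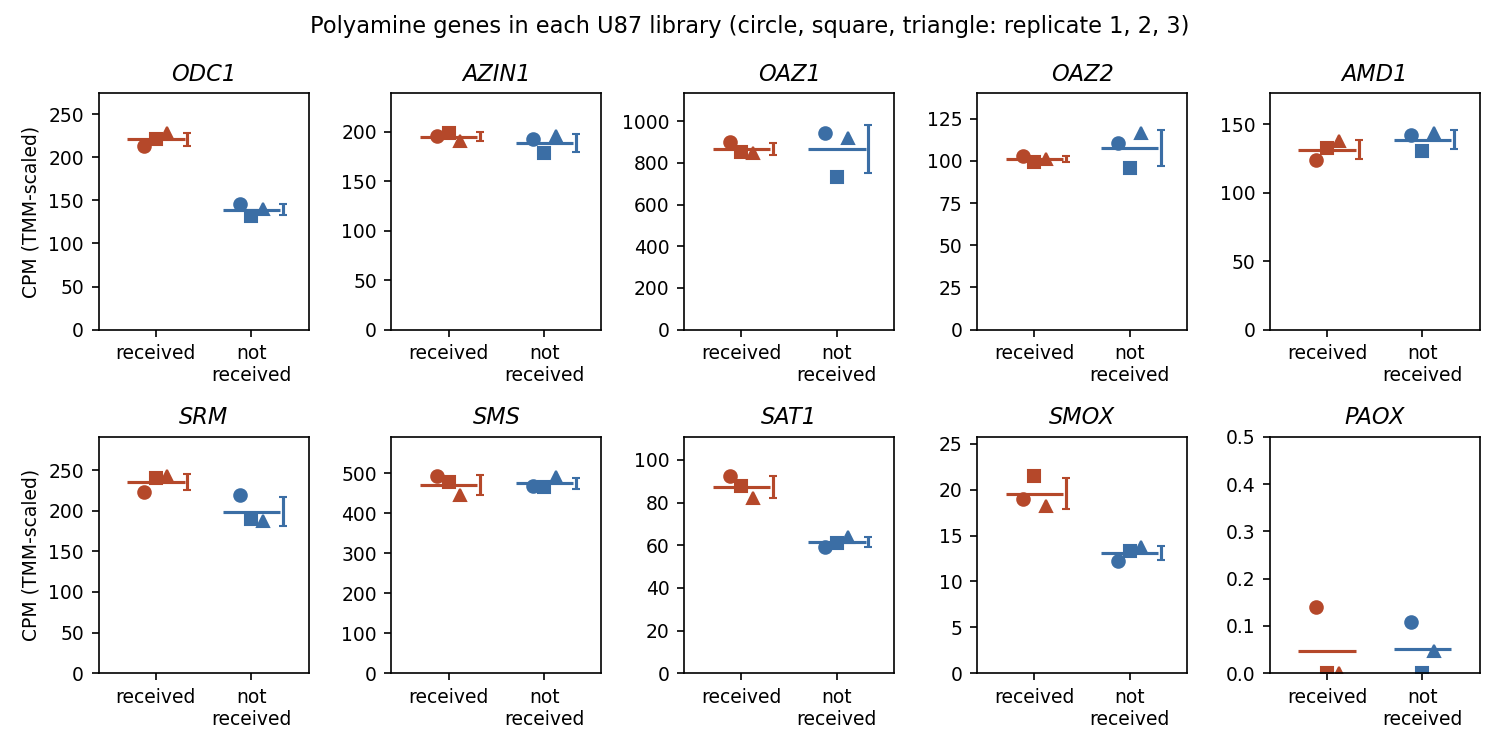
TMM-scaled CPM (y axis, from 0) of each polyamine gene in the 3 received and the 3 not-received libraries (x axis). Points are libraries, horizontal lines are means and bars are SD, not drawn for PAOX, which has 0 to 3 counts a library. For ODC1, SRM, SAT1 and SMOX every received point lies above every not-received point.

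ODC1, ornithine decarboxylase, had 213, 221 and 228 CPM in received libraries and 145, 132 and 140.3 CPM in not-received libraries. All 3 received libraries lay above all 3 not-received ones, with a gap far wider than the spread in either group. The means were 221 ± 7.50 CPM in received and 139 ± 6.51 CPM in not-received cells (SD, n = 3 each), a log2 fold change of 0.67 ± 0.06 (SE), or 1.59-fold. Of the genes tested, 3.92% had a log2 fold change at least as high as that of ODC1. That rank goes by size of change alone and takes in weakly expressed genes, whose fold changes are less certain. Without any 1 library the value stayed between 0.63 and 0.70.

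Around ODC1 the genome holds the E-box CACGTG, the DNA word bound by MYC and its partner MAX, and this sequence is shown because the gene was picked as a MYC target. The search covered RefSeq windows of assembly GRCh38.p14 from 250 bases before to 50 bases after each annotated start, and 7 of the 10 genes had such windows (10 windows in all). CACGTG reads the same on both strands. It was found in 2 of the 10 windows: 2 copies in a window of ODC1 and a single copy in that of SRM. Over all 35116 windows, 7.26% held it and 0.66% held 2 or more copies. The ODC1 pair lies 286 and 320 bases downstream of the outermost ODC1 start, in an intron of its principal transcript in GENCODE v29, and flanks an inner annotated start. The SRM copy lies 199 bases upstream of the SRM start. Capitals mark the E-box in these runs, read 5′ to 3′ on the minus strand.
ODC1 first copy, chr2:10448024-10448053: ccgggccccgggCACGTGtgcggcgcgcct
ODC1 second copy, chr2:10447990-10448019: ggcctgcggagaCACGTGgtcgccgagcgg
SRM copy, chr1:11060200-11060229: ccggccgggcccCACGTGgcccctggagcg
A match to these letters is a description of the sequence and says nothing of binding in these cells.

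The aminopropyl steps are carried out by SRM and SMS. SRM, spermidine synthase, had 224, 241 and 242 CPM in received libraries and 219.9, 189 and 188 CPM in not-received libraries. The groups did not overlap, but the lowest received and the highest not-received value nearly met. SRM rose by 18.4% (95% interval 6.91% to 31.2%; log2 fold change 0.24 ± 0.07 SE, edgeR adjusted p = 0.0247). That call ended without received replicate 2 or 3 or without not-received replicate 3 (edgeR adjusted p = 0.106, 0.111 and 0.0803), with the log2 fold change at 0.20 to 0.32 over the fits that left out 1 library. SMS, spermine synthase, had 492, 477 and 444 CPM in received and 468, 466 and 491 CPM in not-received libraries, and the groups overlapped fully. Its log2 fold change was -0.01 ± 0.06 (edgeR adjusted p = 0.908), with a 95% interval of the change of -8.97% to 8.09%. A change as large as that of ODC1 lies outside that interval.

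AMD1, the decarboxylase that makes the aminopropyl donor, had 124, 133 and 138 CPM in received libraries and 142, 131 and 144 CPM in not-received libraries. The groups overlapped and AMD1 did not pass the test (log2 fold change -0.08 ± 0.06 SE, edgeR adjusted p = 0.415; 95% interval of the change -13.8% to 4.10%). AMD1 protein output is known to be held back by polyamines through a short upstream reading frame in its message, a control that read counts do not show. That frame is printed for this reason from the RefSeq window, with its start and stop codons in capitals, on the plus strand of GRCh38.p14.
AMD1 upstream frame, chr6:110874796-110874816: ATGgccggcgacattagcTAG

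None of the 3 genes of the antizyme system passed the test: the antizymes OAZ1 and OAZ2, which brake ODC1, and their inhibitor AZIN1. OAZ1, the main antizyme, had 901, 853 and 847 CPM in received libraries and 944, 734 and 919.7 CPM in not-received libraries. Not-received replicate 2 gave the low value, and the 3 received libraries lay between it and the other two not-received libraries. Its log2 fold change was 0.00 ± 0.09 (SE, edgeR adjusted p = 0.988; 95% interval of the change -12.0% to 14.0%), and it was -0.10 ± 0.05 without not-received replicate 2 (edgeR adjusted p = 0.120).

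OAZ2, a second antizyme, had 103, 99.4 and 101 CPM in received and 110.3, 96.0 and 117 CPM in not-received libraries, with not-received replicate 2 again the lowest of its group. It did not pass the test (log2 fold change -0.09 ± 0.07, edgeR adjusted p = 0.420), but without not-received replicate 2 it was called lower (-0.17, edgeR adjusted p = 0.0389). AZIN1, the antizyme inhibitor, had 196, 199 and 190.3 CPM in received and 192, 178 and 195 CPM in not-received libraries, which overlap (log2 fold change 0.05 ± 0.06, edgeR adjusted p = 0.589; 95% interval of the change -5.05% to 12.8%).

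Antizyme protein depends on a frameshift that polyamines promote: ribosomes must slip past a stop codon to read the rest of the message. The sites are shown because the level of OAZ1 or OAZ2 mRNA leaves that step unseen. In GENCODE v29 (GRCh38) the skipped base appears as a gap of 1 base between exons, after 68 codons in OAZ1 and 32 codons in OAZ2. Capitals mark the last codon before the slip and the stop codon, on the plus strand for OAZ1 and the minus strand for OAZ2.
OAZ1 site, chr19:2271428-2271457: cctcggtggtgcTCCTGAtgcccctcaccc
OAZ2 site, chr15:64691501-64691530: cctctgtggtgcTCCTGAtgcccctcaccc

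The catabolic enzymes that could be measured rose. SAT1, the acetyltransferase that marks spermidine and spermine for export or oxidation, had 92.3, 87.8 and 82.0 CPM in received libraries and 59.3, 61.2 and 64.1 CPM in not-received libraries. Every received value lay above every not-received value. SAT1 rose 1.42-fold (87.4 ± 5.14 CPM in received against 61.5 ± 2.39 CPM in not-received cells, SD, n = 3 each; log2 fold change 0.51 ± 0.07 SE, edgeR adjusted p = 1.97e-04), and every fit that left out 1 library kept the call.

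SMOX, spermine oxidase, had 19.0, 21.5 and 18.2 CPM in received libraries and 12.2, 13.3 and 13.8 CPM in not-received libraries, again with no overlap. SMOX rose 1.49-fold (19.6 ± 1.69 CPM in received against 13.1 ± 0.805 CPM in not-received cells; log2 fold change 0.58 ± 0.10, edgeR adjusted p = 0.00148), a call that also held without any 1 library. PAOX, the peroxisomal oxidase of acetylated polyamines, had 3, 0 and 0 counts in received and 2, 0 and 1 counts in not-received libraries. A count of 3 corresponds to 0.140 to 0.167 CPM in received and 0.0661 to 0.163 CPM in not-received libraries, so PAOX was not detectable above that floor and was not tested. In GENCODE v29, PAOX overlaps AL360181.3 on the same strand, as OAZ1 does AC005258.1 and ODC1 the small RNA gene SNORA80B, and the antisense or opposite-strand genes of AZIN1, OAZ1 and OAZ2 overlap them too. The strand setting and the rule for reads that fall in more than a single gene were not given in the sources used here.

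**Figure D2:**
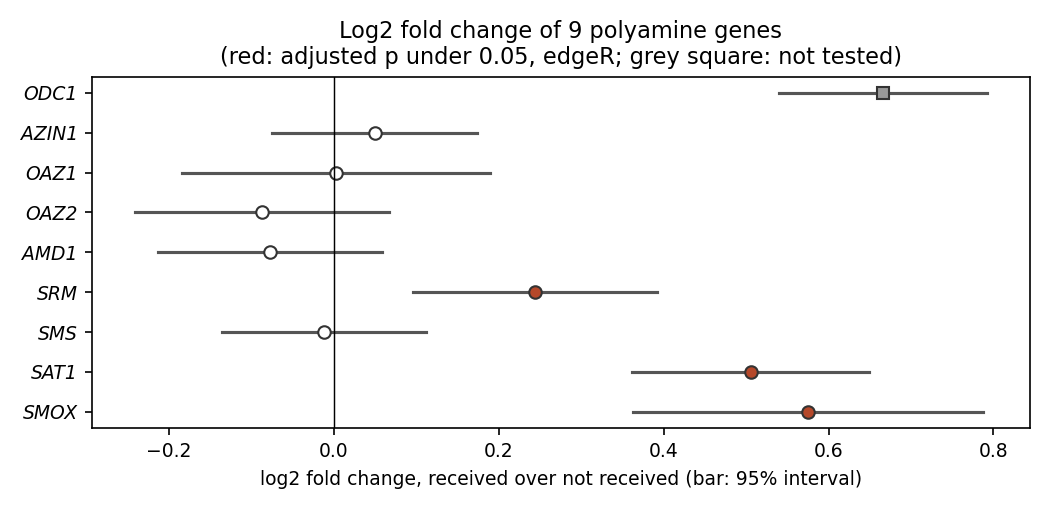
Log2 fold change of received over not received (x axis) for the 9 polyamine genes with enough counts (y axis), with 95% intervals from edgeR as bars. Red circles (SRM, SAT1, SMOX) passed an adjusted p under 0.05, and open circles did not. The grey square, labelled as not tested in the figure, is ODC1. It was part of the same fit, but its p-value is not given because this comparison picked the gene.

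Per kilobase of the longest principal transcript in GENCODE v29, OAZ1 had the highest mean level, 755 ± 25.6 CPM per kilobase in received and 754 ± 99.9 in not-received cells. SMS followed at 257 ± 13.3 in received and 259 ± 7.60 in not-received cells, then SRM at 186 ± 8.22 in received and 157 ± 14.3 in not-received cells. In not-received cells SAT1 (57.8 ± 2.25), OAZ2 (55.6 ± 5.46) and ODC1 (52.5 ± 2.45 CPM per kilobase) lay within about their spread of each other. In received cells ODC1 (83.3 ± 2.83) and SAT1 (82.0 ± 4.83) stood together above OAZ2 (52.3 ± 0.812). AZIN1 had 41.3 ± 0.904 in received and 39.9 ± 1.97 CPM per kilobase in not-received cells. AMD1 had 38.2 ± 2.02 in received and 40.4 ± 2.10 CPM per kilobase in not-received cells, and these neighbours do not differ beyond their spread in not-received cells. SMOX was lowest of the tested genes, 8.76 ± 0.756 in received and 5.87 ± 0.361 CPM per kilobase in not-received cells. The annotation used for counting is not known, so these levels per length are approximate.

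Ratios of raw counts within a library do not depend on scaling between libraries, and show how the members moved against each other. They are given with no test, and all pairs with ODC1 share its counts. ODC1 was picked for its rise, so its separation from a gene that hardly moved follows from that choice. ODC1 stood at 0.237, 0.259 and 0.270 counts per OAZ1 count in received libraries and at 0.154, 0.180 and 0.153 in not-received libraries. The groups did not overlap, and the ratio was 1.58-fold higher in received cells. ODC1 per OAZ2 count averaged 2.19 ± 0.0938 in received and 1.30 ± 0.0892 in not-received cells, and ODC1 per AZIN1 count 1.13 ± 0.0587 in received and 0.739 ± 0.0190 in not-received cells (SD, n = 3 each), both without overlap. AMD1, not called itself, had 0.581, 0.601 and 0.603 counts per ODC1 count in received libraries and 0.978, 0.986 and 1.02 in not-received libraries. By contrast SAT1 per ODC1 count averaged 0.396 ± 0.0367 in received and 0.443 ± 0.0298 in not-received cells and overlapped between the groups. SRM per SMS count averaged 0.501 ± 0.0457 in received and 0.419 ± 0.0451 in not-received cells, and also overlapped, since received replicate 1 had 0.454 and not-received replicate 1 had 0.470. The ratio of SMOX to PAOX could not be formed because PAOX had libraries at 0.

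**Figure D3:**
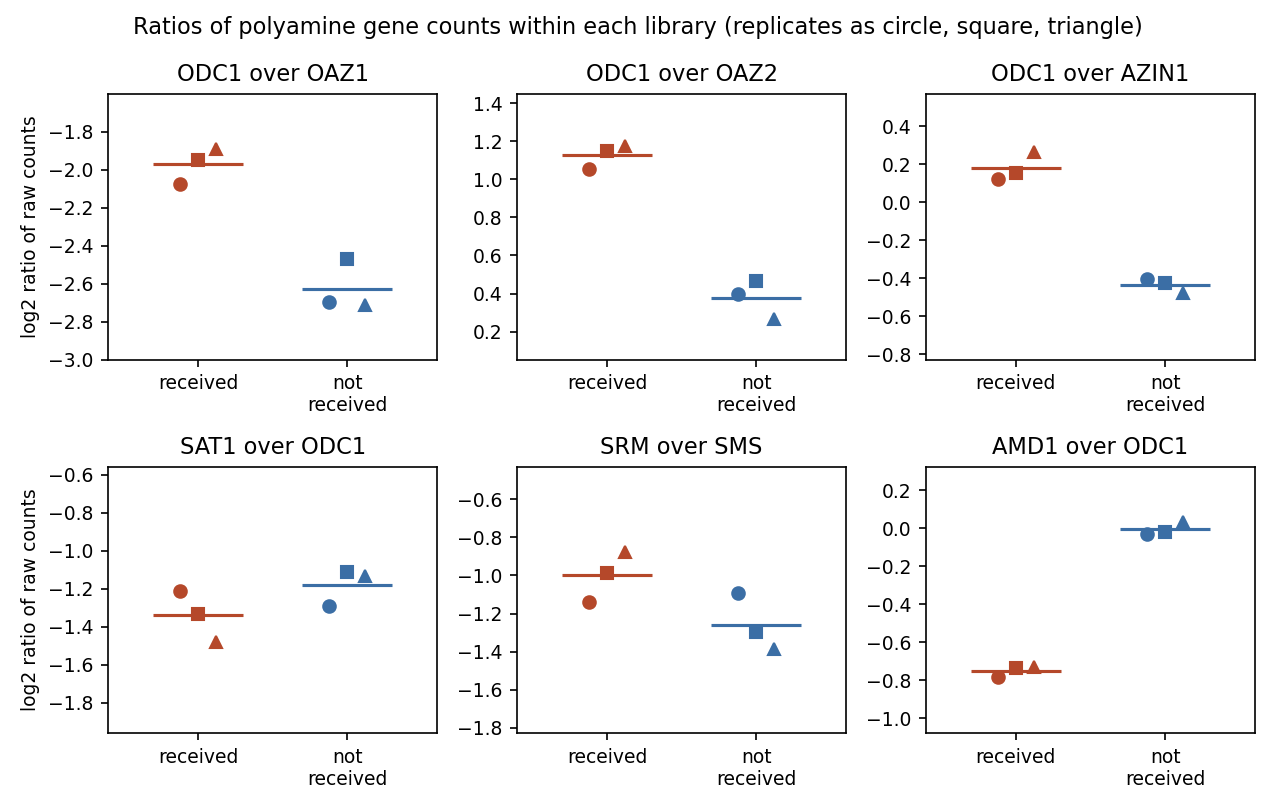
Log2 ratio of raw counts (y axis) of 6 pairs of polyamine genes within each received and not-received library (x axis). Points are libraries and lines are means, and every panel spans the same range of log2 units. ODC1 against OAZ1, OAZ2 and AZIN1 and AMD1 against ODC1 separate the groups, while SAT1 against ODC1 and SRM against SMS overlap.

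The 5 genes whose pattern over the 6 libraries was most like that of ODC1 were PCOLCE, NFKB2, TMEM231, PAXIP1-DT and TKFC. The measure was the root mean square difference in centred log2 CPM, which was 0.05 to 0.06 for these genes and had a median of 0.35 over 9601 genes. The 5 genes were picked for the smallest differences, so their distance from that median follows from the choice. PCOLCE, for example, had 78.7, 86.4 and 86.5 CPM in received and 52.7, 51.3 and 55.7 CPM in not-received libraries. ODC1-DT, the divergent transcript beside ODC1 and a gene chosen after its values were seen, had 1.44, 0.966 and 1.89 CPM in received and 0.435, 0.859 and 0.767 CPM in not-received libraries. It did not pass the test (log2 fold change 1.00 ± 0.35 SE, edgeR adjusted p = 0.0597).

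The lists set beside the members held 45 genes. Some feed the pathway, recycle its by-product, carry polyamines or use them. The rest are family relatives, genes of amine and aldehyde oxidation and known transcriptional regulators. Of the 45 genes, 32 could be tested, 6 rose and 4 fell, the regulator MAX among the latter. Their median log2 fold change was 0.03. The shares over all genes tested were 9.21% higher, 9.67% lower and 18.9% in either direction, and nothing particular to the lists below is read from their small counts. Without received replicate 1, 2 or 3 these counts dropped to 1 and 0, 1 and 0, or 3 and 1, and without not-received replicate 1 they were 3 and 3, so single calls here rest on few libraries. Scaling by library size alone gave 10 higher and 3 lower.

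**Figure D4:**
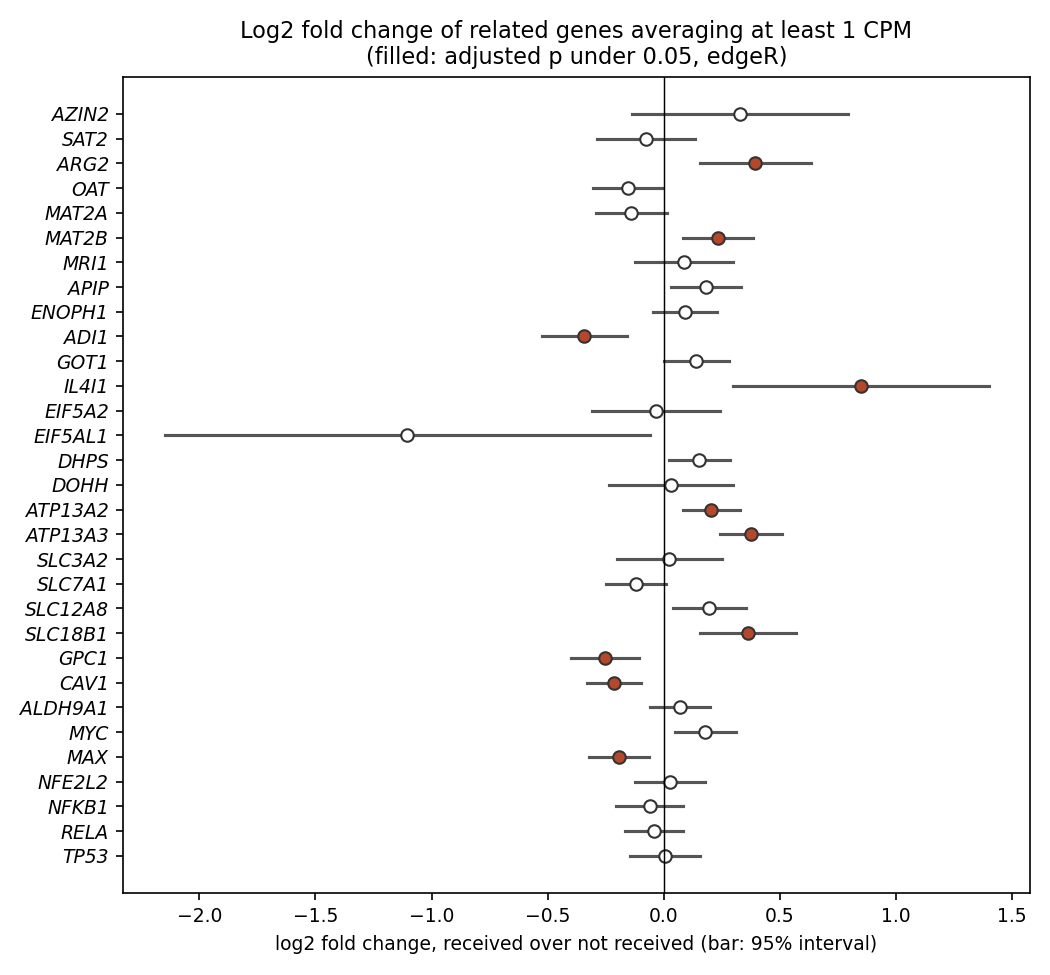
Log2 fold change of received over not received (x axis) with 95% intervals from edgeR for the related genes that average at least 1 CPM (y axis). Filled circles passed an adjusted p under 0.05, among them ATP13A3 higher and CAV1 lower, and open circles did not.

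Substrate supply rose in 2 of 4 tested genes. ARG2, the mitochondrial arginase that makes ornithine, had 18.7, 21.7 and 17.0 CPM in received and 14.0, 13.6 and 16.2 CPM in not-received libraries, which did not overlap (log2 fold change 0.39 ± 0.11, edgeR adjusted p = 0.0245). MAT2B, the regulatory subunit of S-adenosylmethionine synthetase, rose by 17.6% (0.23 ± 0.07, edgeR adjusted p = 0.0342). The ARG2 call was lost without received replicate 1 or 2 or not-received replicate 1 (edgeR adjusted p up to 0.138), and that of MAT2B without any 1 library other than not-received replicate 3 (edgeR adjusted p up to 0.124). Its catalytic partner MAT2A (-0.14 ± 0.07) and OAT, which uses ornithine in another route (-0.16 ± 0.07), were not called (edgeR adjusted p = 0.183 and 0.132). OAT was called lower without not-received replicate 2 and MAT2A without not-received replicate 3 (edgeR adjusted p = 0.00668 and 0.0298).

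The methionine salvage route starts with MTAP, which breaks down the methylthioadenosine that spermidine and spermine synthases release. MTAP had 0 counts in all 6 libraries. The gene lies beside the tumour suppressor CDKN2A and is often lost with it in glioblastoma. Of the 6 other genes placed on the methionine salvage list, all tested, ADI1 fell (26.9 ± 2.63 CPM in received against 34.1 ± 1.50 CPM in not-received cells; log2 fold change -0.34 ± 0.09, edgeR adjusted p = 0.0136) and IL4I1 rose at a low level (2.82 ± 0.560 CPM in received against 1.57 ± 0.358 CPM in not-received cells; 0.85 ± 0.26, edgeR adjusted p = 0.0341). The ADI1 call ended when received replicate 1 or replicate 2 was left out, with edgeR adjusted p = 0.0513 and 0.0881. IL4I1 was not called by DESeq2 (adjusted p = 0.0652), nor without any 1 received library or not-received replicate 3 (edgeR adjusted p up to 0.166).

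Among transport genes 3 rose and 2 fell of 9 tested. ATP13A3, a P-type pump that carries polyamines into the cytosol, had 329, 356 and 323 CPM in received and 242, 268 and 265 CPM in not-received libraries. The groups did not overlap, and ATP13A3 rose 1.30-fold (log2 fold change 0.38 ± 0.06 SE, edgeR adjusted p = 0.00110), a call kept without any 1 library. Its lysosomal relative ATP13A2, which exports polyamines from lysosomes, rose by 15.3% (0.21 ± 0.06, edgeR adjusted p = 0.0246). SLC18B1, a vesicular polyamine transporter, rose by 28.6% (0.36 ± 0.10, edgeR adjusted p = 0.0187). Calls of ATP13A2 were lost without any 1 received library or not-received replicate 1 (edgeR adjusted p up to 0.0923) and of SLC18B1 when received replicate 1 or replicate 2 was left out (edgeR adjusted p = 0.0971 and 0.0810).

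The 2 transport genes that fell are linked to uptake at the cell surface, and no direction of uptake is read from them. GPC1, a heparan sulfate proteoglycan implicated in polyamine uptake, had 64.7 ± 2.77 CPM in received and 77.1 ± 4.78 CPM in not-received cells (log2 fold change -0.25 ± 0.07, edgeR adjusted p = 0.0211). CAV1, caveolin-1, had 1319 ± 32.7 CPM in received and 1530.4 ± 45.1 CPM in not-received cells (-0.21 ± 0.05, edgeR adjusted p = 0.0156). Both calls were lost without any 1 received library, and also without not-received replicate 1 for GPC1 and replicate 3 for CAV1 (edgeR adjusted p up to 0.120 and 0.0960). SLC3A2, linked to polyamine export, and the arginine transporter SLC7A1 were not called (0.02 ± 0.10 and -0.12 ± 0.06, edgeR adjusted p = 0.893 and 0.185), nor was SLC12A8 (0.20 ± 0.07, edgeR adjusted p = 0.0762), a call that was made with scaling by library size alone and without not-received replicate 3 (0.0379 and 0.0412).

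Spermidine is the donor for hypusine, a modified lysine of the translation factor EIF5A. DHPS, the first enzyme of that modification, had 85.6 ± 0.975 CPM in received and 77.0 ± 2.97 CPM in not-received cells and did not pass the test (log2 fold change 0.15 ± 0.06, edgeR adjusted p = 0.0923; 0.0437 with scaling by library size alone). Of the 4 tested genes on the hypusine list edgeR called 0, as did DESeq2 and limma-voom, with 1 higher and 1 lower at an unadjusted p under 0.05. For the lower gene the groups overlapped. It had 5.88 CPM in not-received replicate 2, against 1.68 and 2.35 CPM in not-received replicates 1 and 3, and its value without replicate 2 is not given. EIF5A itself was listed with 0 to 4 counts a library, although growing cells transcribe it strongly. It has near-identical copies elsewhere in the genome, so no level is read from this. Among the family relatives of the members, AZIN2, a second antizyme inhibitor, stood at 5.61 ± 1.41 CPM in received and 4.51 ± 0.993 CPM in not-received cells (0.33 ± 0.22, edgeR adjusted p = 0.309). Both tested relatives were not called by edgeR, DESeq2 or limma-voom, and 0 had an unadjusted p under 0.05. The 1 tested gene of amine and aldehyde oxidation was not called in the same fits, and AOC1, the diamine oxidase, had 0 counts in every library.

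Of 6 tested transcription factors known to act on ODC1, SRM or SAT1, 1 was called, beside 18.9% of all genes. MYC had 123, 118 and 133 CPM in received and 107, 112 and 110.2 CPM in not-received libraries, which did not overlap. The difference did not pass the test (log2 fold change 0.18 ± 0.06 SE, edgeR adjusted p = 0.0561), but it did without not-received replicate 2 (0.0252), with scaling by library size alone (0.0218) and when genes needed 1 CPM or more in 3 libraries (0.0479). MAX, the DNA-binding partner of MYC, was the gene called, and fell (83.1 ± 3.67 CPM in received against 94.9 ± 0.899 CPM in not-received cells; -0.19 ± 0.06, edgeR adjusted p = 0.0399). That call was lost in 9 of the 13 alternative fits, DESeq2 and the replicate block among them (adjusted p = 0.0506 and 0.0539).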

How the data were processed

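Raw read counts per gene symbol were deposited by the authors, 1 file per library, from poly-T captured mRNA with random-hexamer cDNA and 150 bp paired-end reads, per the labels' protocols. DESeq and R 3.6.1 are named in the submitters' processing notes. Aligner, counting program, strand setting, genome build and annotation were not given in the sources used here. From these counts, genes were kept with filterByExpr (14100 of 28833 with a count), TMM-scaled and fitted with robust glmQLFit, then tested with glmQLFTest in edgeR 4.0.16 (R 4.3.3), with Benjamini-Hochberg adjustment over all genes tested. Each SE was derived from the log2 fold change and its F statistic, and 95% intervals use the fitted degrees of freedom. The steps were tested on simulated data. Counts without molecular identifiers are not independent molecules, so floors (3 counts) cover counting error only. Alternatives were other scalings, DESeq2 1.42.0, limma-voom (limma 3.58.1), other filters, a replicate block and leaving out each library. The members and lists were chosen with earlier results of these data known. All members are named; of the related lists, every called gene, up to 6 others as examples, and MYC, MTAP, EIF5A and SLC3A2. Genes most like ODC1 were ranked over genes whose average log2 CPM reached 3. Alternatives of 7 named markers and of the count of members other than ODC1 were added after seeing the data, and those markers were named after their values were seen.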

Additional observations from a re-analysis of the deposited data

How the results depend on the processing

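Over 13 alternatives the direction and call of AZIN1, AMD1, SAT1 and SMOX held in every fit (log2 fold change 0.47 to 0.55 for SAT1 and 0.51 to 0.63 for SMOX). Of the 104 alternative fits of members other than ODC1, 95 kept direction and call. The exceptions were SRM and OAZ2, whose calls changed as given above, and near-zero values that changed sign. These were OAZ1 without received replicate 1 or not-received replicate 2 (range -0.10 to 0.069 with 1 library left out), and SMS with scaling by library size alone (0.025) or without received replicate 3 or not-received replicate 3 (range -0.038 to 0.034). Of the members other than ODC1, 2 or 3 were called higher in all fits, and 1 was called lower without not-received replicate 2 and 0 elsewhere. Related genes called higher numbered 1 to 6 and lower 0 to 5 with 1 library left out, and 10 were higher with scaling by library size alone. SLC3A2 turned negative without not-received replicate 2 or 3 (range -0.073 to 0.16). Over all genes 1298 were higher and 1364 lower (48.8% higher). Leaving out 1 library gave 604 to 1356 higher and 691 to 1579 lower, no low-count filter gave 2084 lower and 41.1% higher, and library size alone moved the share to 60.3% higher. Same-numbered libraries did not deviate together (correlations of -0.17, -0.03 and 0.02, against up to 0.20 for other pairs), so the numbers were not taken as pairs. With the replicate number as a block 1252 genes were higher and 1384 lower, 3 members other than ODC1 higher and 0 lower, and 6 related genes higher and 3 lower. The ratios within a library kept their direction without any 1 library. They also did with 0.5 added to counts, an addition too small to alter ratios of counts this high. A minimum average log2 CPM of 5 kept 3 of the 5 genes most like ODC1. That filter only removes genes below it and cannot alter the order of the rest. The cause of these shifts was not tested.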
